A study of Rattus norvegicus with 47 samples.

Results

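The glucocorticoid receptor gene Nr3c1 and 6 genes known to be induced by the receptor, Fkbp5, Tsc22d3, Dusp1, Zbtb16, Sgk1 and Klf9, were followed in rat blood over the first day post MCA occlusion. The genes were chosen by symbol, with earlier results of these data known. Each was represented by 1 probe set, so that these were 7 of 20935 gene symbols, on an array of 27596 probe sets. The blood came from 8 male SHR (spontaneously hypertensive rats) aged 16 weeks, all with the middle cerebral artery occluded by a thread under isoflurane, with reperfusion under a further anesthesia between the samples at 1 h and 2 h. The 0 h sample was drawn immediately before anesthesia and was the only control, since there was no sham group. There were 8 arrays at each of 0, 1, 2, 3 and 24 h and 7 at 6 h, where rat 3 had no sample. The effects of ischemia, surgery, anesthesia and handling cannot be told apart in this design. Nor can that of the time of day, since clock times of sampling are not given and no untreated series was sampled. The 24 h blood was taken from the heart after an isoflurane overdose, rather than from the tail vein. These differences cannot be told apart from the time of 24 h.

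Glucocorticoids, in the rat mainly corticosterone, are released by the adrenal gland in stress and in a daily rhythm. They bind a receptor that is held in the cytosol by heat shock protein chaperones. The bound receptor moves to the nucleus, where it raises the transcription of some genes by binding DNA and lowers that of many inflammatory genes by acting on other transcription factors. Blood leukocytes carry the receptor, and glucocorticoids are known to raise the number of circulating neutrophils and to lower that of lymphocytes.

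Each value below is the authors' mean log2 RMA signal of a time point, followed where given by the authors' SD over its arrays. A change is that mean less the 0 h mean, so that 1 stands for a doubling. A change was called where the adjusted p of a moderated test, built from these means, SDs and array numbers, was below 0.05 over all 27596 probe sets. Over all probe sets the median change lay between 0.04 and 0.07 at the 5 later time points. None of the 7 was among the dimmest 25% of probe sets. In a bulk sample of blood, fewer cells of a type and less RNA per cell cannot be told apart.

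On the rn5 annotation of the table, Nr3c1 (probe set 10804132) lies at chr18:31408746-32348480 on the minus strand and Fkbp5 (10831940) at chr20:10177058-10265095 on the minus strand. Dusp1 (10732652) is at chr10:16867395-16870162 on the plus strand, and Zbtb16 (10917116) at chr8:51578440-51739786 on the minus strand. Sgk1 (10717331) is at chr1:25652749-25768969 on the minus strand, and Klf9 (10714413) at chr1:248193534-248218159 on the plus strand. Tsc22d3 (10939516) is placed at chr3:52656968-52715432 on the plus strand, although RefSeq has this gene on chromosome X. Accessions of its probe set matched Tsc22d3 in RefSeq, and those of the other 6 matched their genes. These accessions are part of the array annotation, as the symbols are, and no probe sequence was aligned. What the probes of this set measure was therefore not tested. The range given for Nr3c1 spans 939735 bases and takes in the probe sets of 4 other named genes.

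The windows around the transcription starts of these genes, 250 bases before to 50 after, were read from RefSeq on GRCr8. There were 11 windows for 6 of the genes and none for Zbtb16. Those of the gene that rose most and of a pair of risers with different time courses are shown to compare their motifs, 5′ to 3′ on the strand of the gene, with motif matches in capitals. The Fkbp5 window is at chr20:6543506-6543805 on the minus strand, that of Dusp1 at chr10:17184603-17184902 on the plus strand, and that of the third start of Sgk1 at chr1:24804782-24805081 on the minus strand.
Fkbp5: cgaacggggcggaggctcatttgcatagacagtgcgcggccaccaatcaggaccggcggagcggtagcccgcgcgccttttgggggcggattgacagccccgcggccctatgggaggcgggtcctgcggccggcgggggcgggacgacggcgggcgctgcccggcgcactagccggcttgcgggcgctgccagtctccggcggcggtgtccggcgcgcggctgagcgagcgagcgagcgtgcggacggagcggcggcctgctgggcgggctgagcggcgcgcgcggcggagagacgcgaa
Dusp1: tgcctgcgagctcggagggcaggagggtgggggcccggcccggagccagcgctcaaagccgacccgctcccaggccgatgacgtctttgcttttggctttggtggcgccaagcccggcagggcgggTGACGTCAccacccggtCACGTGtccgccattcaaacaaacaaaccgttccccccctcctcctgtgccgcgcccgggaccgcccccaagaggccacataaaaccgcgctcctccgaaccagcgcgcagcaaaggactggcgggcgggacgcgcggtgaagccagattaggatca
Sgk1: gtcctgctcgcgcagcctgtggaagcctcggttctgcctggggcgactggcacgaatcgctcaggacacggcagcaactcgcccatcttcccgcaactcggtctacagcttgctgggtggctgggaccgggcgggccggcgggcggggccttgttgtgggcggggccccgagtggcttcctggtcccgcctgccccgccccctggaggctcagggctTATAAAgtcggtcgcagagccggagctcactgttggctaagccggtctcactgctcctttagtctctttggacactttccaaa
The binding site of the receptor was searched on both strands in 3 ways: as the palindrome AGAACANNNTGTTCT, as a looser form of it, GNACANNNTGTNC, and as its single arm AGAACA, which the palindrome contains. These were found in 0.0149%, 0.439% and 20.7% of the 33469 RefSeq windows of this length, and in 0 of the 11 windows of these genes. Since the windows reach only 250 bases upstream, this says only that these letters are not within them. The Dusp1 window holds a cAMP response element, TGACGTCA, starting at base -124 from the start site, as do 1.83% of windows, and an E-box, CACGTG, starting at -107, as do 6.42%. The Sgk1 window shown holds a TATA box, TATAAA, starting at -33, which 14.2% of windows have. Among the windows not shown, TATAAA was also in that of start 1 of Sgk1, at -55, and that of start 3 of Tsc22d3, at -44. The remaining Sgk1 window had none. The Fkbp5 window has a GC content of 77.0% and none of these motifs.

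The target genes did not follow 1 shared profile. Fkbp5, Dusp1, Zbtb16 and Sgk1 were upregulated from 1 h on, for different lengths of time, while Klf9 was higher only at 1 h and lower later. Tsc22d3 was not called at any time point, and the receptor itself was downregulated. At 1 h, 5 of the 7 genes were higher, where 21.7% of all probe sets were called higher, and 1 was lower, against 15.4%. At 2 h the numbers were 4 higher (21.7% of all probe sets) and 1 lower (18.6%). At 3 h there were 3 higher (27.3%) and 1 lower (19.2%), and at 6 h 3 higher (22.5%) and 2 lower (19.3%). At 24 h, 2 were higher (17.4%) and 2 lower (13.9%). After centring each time point on its median, the share of all probe sets called higher was 12.6%, 16.1%, 19.1%, 16.9% and 9.96% at the 5 later time points, and the share called lower 18.8%, 20.3%, 21.4%, 21.0% and 16.8%. Calls to higher signal thus made up 53.8% to 58.7% of all calls before centring and 37.3% to 47.2% after it. The F-test over the 6 time points called all 7 genes, and 55.5% of all probe sets.

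**Figure D1:**
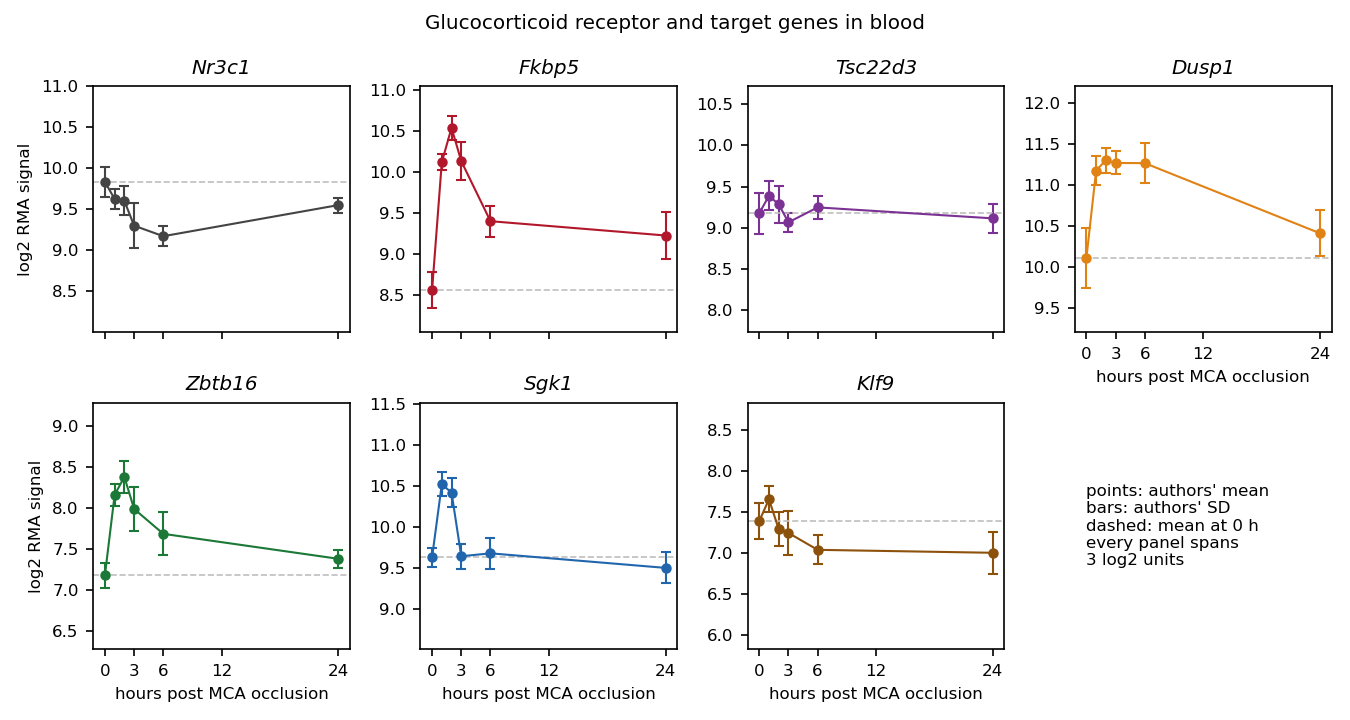
Authors' mean log2 RMA signal (y axis) of the receptor gene and its 6 target genes against hours post MCA occlusion (x axis, linear), with bars for the authors' SD over 8 arrays (7 at 6 h) and a dashed line at the 0 h mean. Fkbp5 peaked at 10.54 at 2 h, Dusp1 stayed between 11.17 and 11.30 from 1 to 6 h, Sgk1 was back at 9.65 by 3 h, and Nr3c1 was lowest at 9.17 at 6 h.

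Nr3c1 encodes the receptor through which glucocorticoids act. Its mean was 9.84 (authors' SD 0.19) before the occlusion, 9.63 (0.13) after 1 h, 9.60 (0.18) after 2 h and 9.30 (0.27) after 3 h. It was lowest after 6 h, at 9.17 (0.12), and had come back to 9.55 (0.09) by 24 h. The means thus fell up to 6 h and all 5 lay below that of 0 h. At 6 h the change was -0.66 (SE 0.09, 95% CI -0.84 to -0.48, adjusted p = 2.93e-08), which is a 1.58-fold lower signal. The change was -0.53 at 3 h (adjusted p = 1.53e-06) and -0.28 at 24 h (adjusted p = 0.0101), or 42.7% of the change at 6 h. The smaller changes of -0.21 at 1 h (adjusted p = 0.0499) and -0.23 at 2 h (adjusted p = 0.0273) lay near the threshold. The call at 1 h was lost in 4 of the 7 alternative settings, and those at 2 h and 24 h after quantile normalization of the means. Between neighbouring time points, Nr3c1 fell by 0.30 from 2 to 3 h (adjusted p = 0.0325) and rose by 0.38 from 6 to 24 h (adjusted p = 1.14e-03). Ordered by level, the neighbours from 6 h up to 1 h each differed by less than the larger of their SDs, and only the gap between 1 h and 0 h was wider.

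Fkbp5 encodes a co-chaperone that lowers the affinity of the receptor for its hormone, and is one of the most widely used readouts of receptor activity. It showed the largest change of the 7 genes. Its mean rose from 8.56 (authors' SD 0.22) before the occlusion to 10.12 (0.10) after 1 h and 10.54 (0.15) after 2 h. It then declined to 10.14 (0.23) after 3 h, 9.40 (0.19) after 6 h and 9.23 (0.28) after 24 h. The level at 1 h was above that of 0 h by 7.05 times the SD at 0 h, and the 24 h level was still higher. The change was 1.56 at 1 h (SE 0.10, 95% CI 1.36 to 1.76, adjusted p = 1.50e-16), when only 13 of the 27596 probe sets had risen more. It was 1.98 at 2 h (adjusted p = 4.72e-21), a 3.94-fold rise. At 24 h, 33.7% of this change was left, at 0.67 (SE 0.10, adjusted p = 1.32e-06). The rise from 1 to 2 h (0.42, adjusted p = 3.46e-03) and the falls from 2 to 3 h (-0.41, adjusted p = 9.92e-03) and from 3 to 6 h (-0.73, adjusted p = 3.45e-06) were each called. Fkbp5 was the only one of the 7 genes called in the step from 3 to 6 h, where 2.44% of all probe sets were called lower and 2.34% higher. The step of -0.17 from 6 to 24 h was not (adjusted p = 0.264). Among the ordered levels, 1 h and 3 h differed by only 0.01 and 24 h and 6 h by less than the larger SD, with the other neighbours further apart than that.

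Zbtb16, which encodes the transcription factor PLZF, had a profile with the same peak time and 60.6% of the height. Its mean was 7.18 (authors' SD 0.15) before the occlusion, 8.16 (0.13) after 1 h and 8.38 (0.19) after 2 h, and went down to 7.99 (0.27) after 3 h, 7.68 (0.26) after 6 h and 7.38 (0.11) after 24 h. All 5 later means were above that of 0 h. The change at 2 h was 1.20 (SE 0.09, 95% CI 1.01 to 1.39, adjusted p = 1.08e-14), a 2.30-fold rise, and it was still 0.50 at 6 h (adjusted p = 4.01e-05). At 24 h it was 0.20 (adjusted p = 0.101), which was called when the variance was taken from the groups compared only (adjusted p = 0.0336). The fall from 2 to 3 h (-0.39, adjusted p = 9.23e-03) and that from 6 to 24 h (-0.30, adjusted p = 0.0210) were called. All neighbours in the order of levels differed by more than the larger SD, except 3 h and 1 h.

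Dusp1 encodes a phosphatase that switches off MAP kinases, and is induced by mitogens and stress as well as by glucocorticoids. It was higher from 1 h on, and its means stayed close to one level until 6 h. Its mean was 10.11 at 0 h, with the widest authors' SD of any of these values (0.37), and 11.17 (0.17) after 1 h. It was 11.30 (0.15) after 2 h, 11.26 (0.14) after 3 h, 11.26 (0.24) after 6 h and 10.41 (0.28) after 24 h. The 4 means from 1 to 6 h therefore formed a plateau, within 0.13 of each other. The change was 1.07 at 1 h (SE 0.12, adjusted p = 5.24e-10) and highest at 2 h, at 1.19 (95% CI 0.96 to 1.42, adjusted p = 6.13e-12), a 2.28-fold rise. The 3 steps from 1 to 6 h were 0.13, -0.03 and -0.0019 (adjusted p = 0.602, 0.933 and 0.995), and the interval of the step from 3 to 6 h ran from -0.24 to 0.24. The fall from 6 to 24 h was -0.86 (adjusted p = 2.26e-07). At 24 h a change of 0.30 was left (adjusted p = 0.0420). This call was lost after centring (adjusted p = 0.0908), without moderation (adjusted p = 0.0519) and with the variance of the 2 groups only (adjusted p = 0.118), and the difference was smaller than the SD at 0 h.

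Sgk1 encodes a kinase that regulates ion channels and transporters and was named for its induction by serum and glucocorticoids. Its rise was the shortest of the 4. The mean was 9.63 (authors' SD 0.12) before the occlusion, 10.53 (0.14) after 1 h and 10.42 (0.17) after 2 h. It was 9.65 (0.15) after 3 h, 9.68 (0.19) after 6 h and 9.51 (0.19) after 24 h. The levels thus fell into a high pair at 1 and 2 h and a low set of the other 4, with a gap of 0.74 between them. The change was 0.89 at 1 h (SE 0.08, 95% CI 0.73 to 1.05, adjusted p = 3.47e-12), a 1.86-fold rise, and 0.79 at 2 h (adjusted p = 2.86e-11). The fall from 2 to 3 h was -0.78 (SE 0.08, 95% CI -0.94 to -0.61, adjusted p = 3.82e-09), the largest step downward of the 7 genes in that interval. At 3 h the change was 0.01 (95% CI -0.15 to 0.18), and its sign turned on centring (-0.02). The changes at 6 and 24 h were 0.05 and -0.13 and were not called (adjusted p = 0.662 and 0.227).

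Fkbp5, Zbtb16, Sgk1 and Nr3c1 fell from 2 to 3 h, where 1.62% of all probe sets were called lower and 1.90% higher, while Dusp1, Klf9 and Tsc22d3 were not called. For Dusp1 the interval of this step was -0.27 to 0.20. For Tsc22d3 the step was -0.22 (95% CI -0.40 to -0.04, adjusted p = 0.201), and this interval overlapped that of Nr3c1 (-0.47 to -0.13). The differences between genes in their steps were not tested. The step from 6 to 24 h took Dusp1 and Zbtb16 down, where 8.68% of probe sets were called lower, and Nr3c1 up, where 10.2% were called higher.

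Klf9 encodes a Krüppel-like transcription factor that is induced by glucocorticoids and thyroid hormone and follows the daily rhythm. Its mean was 7.39 (authors' SD 0.22) before the occlusion and 7.66 (0.16) after 1 h, and then went down to 7.30 (0.21) after 2 h, 7.25 (0.26) after 3 h, 7.04 (0.18) after 6 h and 7.01 (0.26) after 24 h. It was highest at 1 h and lowest at the last time points. The change at 1 h was 0.27 (SE 0.11, 95% CI 0.05 to 0.48, adjusted p = 0.0426), and this call was lost after centring (adjusted p = 0.113) and without moderation (adjusted p = 0.0514). The change was -0.35 at 6 h (adjusted p = 8.34e-03) and -0.39 at 24 h (SE 0.11, adjusted p = 4.53e-03), a 1.31-fold lower signal. Klf9 was the only one of the 7 genes with its largest change at 24 h. The fall from 1 to 2 h (-0.36, adjusted p = 0.0204) was its only called step, in an interval where 4.11% of probe sets were called lower and 4.66% higher. Apart from 0 h and 1 h, neighbouring levels differed by less than the larger SD.

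Tsc22d3 encodes GILZ, a leucine zipper protein that carries out part of the anti-inflammatory action of glucocorticoids and is a standard target gene in lymphocytes and macrophages. Its mean was 9.17 (authors' SD 0.25) before the occlusion, 9.39 (0.17) after 1 h, 9.28 (0.23) after 2 h, 9.06 (0.11) after 3 h, 9.25 (0.14) after 6 h and 9.11 (0.18) after 24 h. The 6 levels spanned 0.32, and each neighbour in their order differed from the next by less than the larger SD. The change at 1 h was 0.21 (SE 0.09, 95% CI 0.03 to 0.40, adjusted p = 0.0603), which was called after quantile normalization of the means (0.29, adjusted p = 0.0133). The changes at 2, 3, 6 and 24 h were 0.11, -0.11, 0.07 and -0.06, with adjusted p from 0.324 to 0.631. The F-test was called (adjusted p = 0.0230), at rank 13064 of the 27596 probe sets. The interval at 2 h ran from -0.07 to 0.29, so that a rise of the size of Fkbp5 was outside it. This holds for the signal of its probe set, whose annotated position differs from that in RefSeq.

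**Figure D2:**
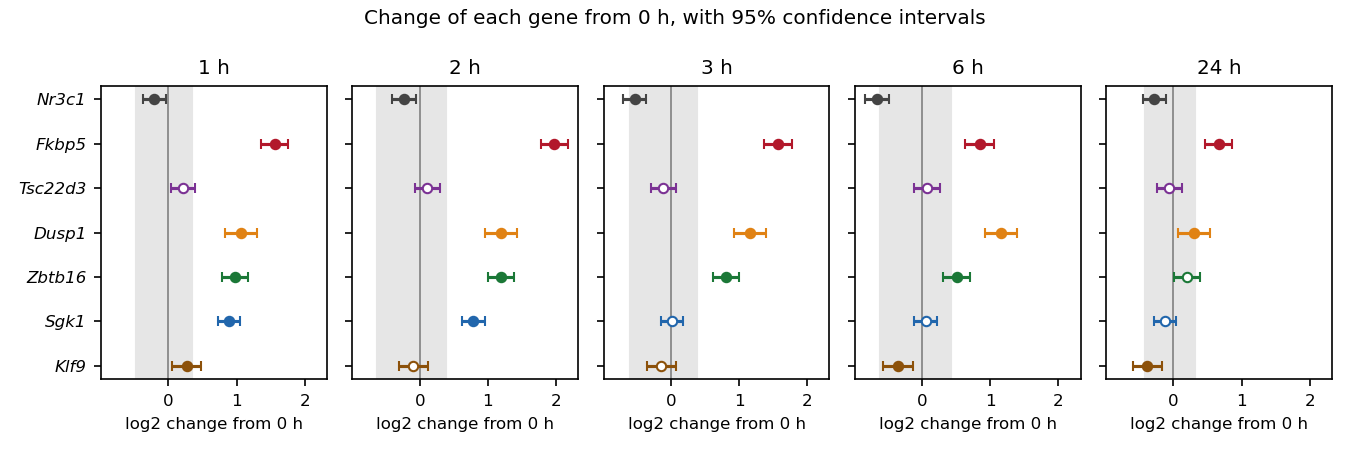
Change from 0 h of each gene (x axis, log2) at the 5 later time points, with 95% confidence intervals from the moderated test; filled points were called and open points were not, and the grey band holds the central 90% of all 27596 probe sets. Fkbp5 lay outside the band at every time point, and Tsc22d3 inside it at every one.

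The genes whose 5 changes differed least from those of a member, as the root mean square of the differences on the log2 scale, were taken from 20436 other probe sets with 1 symbol. For Fkbp5 these were Amica1 (0.11), Uaca (0.16) and Ldhc (0.18), with changes at 2 h of 2.04, 2.06 and 2.20. For Zbtb16 they were Tmcc1 (0.06), Zfp462 (0.08) and Mpzl2 (0.10), and for Dusp1 Plaur (0.08), Arrdc3 (0.11) and Lpcat2 (0.11). For Sgk1 the closest was Per1 (0.19), a clock gene that is itself a target of the receptor, followed by Tiam2 (0.20) and LOC691418 (0.20). Per1 rose by 0.79 in the first hour, and its changes at 2, 3 and 24 h were 0.70, 0.38 and -0.02. For Nr3c1, Nsfl1c and Mettl18 were among the closest, both at 0.06, and their changes at 6 h were -0.59 and -0.62. Likeness over 5 changes that share the same 0 h samples is a description, with no test. Among the 7 genes themselves the smallest difference was between Tsc22d3 and Klf9 (0.26) and the widest between Nr3c1 and Fkbp5 (1.77).

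The other genes of the pathway were taken in 4 lists, chosen with earlier results of these data known. Their shares beside those of all probe sets are therefore descriptions, and not a test of the pathway. Of 30 further genes known to be induced by glucocorticoids, 16 were higher at 1 h and 2 lower, where 21.7% of all probe sets were higher and 15.4% lower. At 6 h 19 (63.3%) were higher and 8 (26.7%) lower, where 22.5% and 19.3% of all probe sets were. Their median change at 6 h was 0.29, against 0.05 over all probe sets. At 24 h 7 (23.3%) of the 30 were higher and 5 (16.7%) lower, nearer to the 17.4% and 13.9% of all probe sets. The largest rises were in Il1r2, the decoy receptor of interleukin-1 (3.33 at 6 h, SE 0.15, adjusted p = 6.22e-23), and Alox5ap, which is needed for leukotriene synthesis (2.31 at 6 h, SE 0.12, adjusted p = 2.17e-21). Anxa1, an anti-inflammatory phospholipid-binding protein, rose by 1.63 and the deubiquitinase Usp2 by 1.46, also at 6 h (adjusted p = 5.91e-17 and 3.47e-20). The means of these 4 were higher at 6 h than at 3 h, when Fkbp5, Zbtb16 and Sgk1 were past their peak. In the other direction, Il7r, the interleukin-7 receptor of T cells, stood at 0.36 at 1 h and fell by 0.90 at 6 h (adjusted p = 1.45e-08). The chemokine receptor Cxcr4 fell by 0.87 at 3 h (adjusted p = 2.70e-10), the stress protein Sesn1 fell by 0.85 at 6 h (adjusted p = 6.26e-10) and the thioredoxin inhibitor Txnip fell by 0.47 at 3 h (adjusted p = 1.53e-05).

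Of 17 genes that glucocorticoids are known to hold down in activated immune cells, 10 (58.8%) were higher at 3 h and 3 (17.6%) lower, where 27.3% and 19.2% of all probe sets were. At 6 h 7 (41.2%) were higher and 1 (5.88%), Il6, was lower, where 22.5% and 19.3% were, and Il6 was among the dimmest 25% of probe sets that 1 alternative left out. At 24 h 4 (23.5%) were higher and 3 (17.6%) lower, where 17.4% and 13.9% were. Mmp9, a matrix metalloproteinase of neutrophil granules, rose by 2.75 at 2 h (SE 0.18, adjusted p = 1.11e-17) and the inducible nitric oxide synthase Nos2 by 2.61 at 3 h (SE 0.12, adjusted p = 2.28e-22). The cytokine Tnf stood at 0.04 at 1 h and rose by 1.53 at 6 h (adjusted p = 7.05e-09), and the monocyte chemokine Ccl2 rose by 1.32 at 3 h (adjusted p = 7.04e-06). Ccl3, Il6 and Ccl4 had their largest changes at 24 h, of -0.74, -0.38 and -0.30 (adjusted p = 5.63e-04, 9.18e-04 and 0.0248). Genes of both lists thus went in both directions.

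Of 12 genes for steroid handling and receptor chaperones, 9 were lower at 6 h, the time at which the receptor was lowest, where 19.3% of all probe sets were called lower. The other 3 were not called. Their median change was -0.47 at 6 h and -0.12 at 24 h. The largest falls were in Stip1, which joins Hsp70 to Hsp90 (-1.04 at 6 h, SE 0.18, adjusted p = 8.09e-06), and Hsd11b1, the enzyme that regenerates active glucocorticoid inside cells (-0.97 at 6 h, SE 0.10, adjusted p = 2.09e-11). The Hsp90 co-chaperone Ptges3 fell by 0.84 at 3 h (adjusted p = 5.54e-07). Fkbp4, which competes with the product of Fkbp5 for the receptor complex, stood at 0.25 at 1 h and fell by 0.61 at 6 h (SE 0.16, adjusted p = 2.31e-03), where Fkbp5 stood 0.84 above its 0 h level. Of 10 receptor coregulators, 5 were lower at 6 h (19.3% of all probe sets) and 2 higher, where 22.5% of all probe sets were higher. The number higher was 1 after centring, and 3 after quantile normalization and with the variance of the 2 groups only. The coactivator Ncoa3 fell by 1.01 at 6 h (adjusted p = 1.31e-13) and Med1, a Mediator subunit, fell by 0.54 at 6 h (adjusted p = 8.91e-07). Nrip1 fell by 0.58 at 2 h (adjusted p = 6.51e-09), and its change at 6 h was 0.14. The rises were small, with 0.25 for the coactivator Ncoa1 at 6 h (adjusted p = 7.70e-04) and 0.23 for the acetyltransferase Ep300 at 2 h (adjusted p = 7.26e-04), and Crebbp had a largest change of 0.13 at 6 h (adjusted p = 0.0712).

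**Figure D3:**
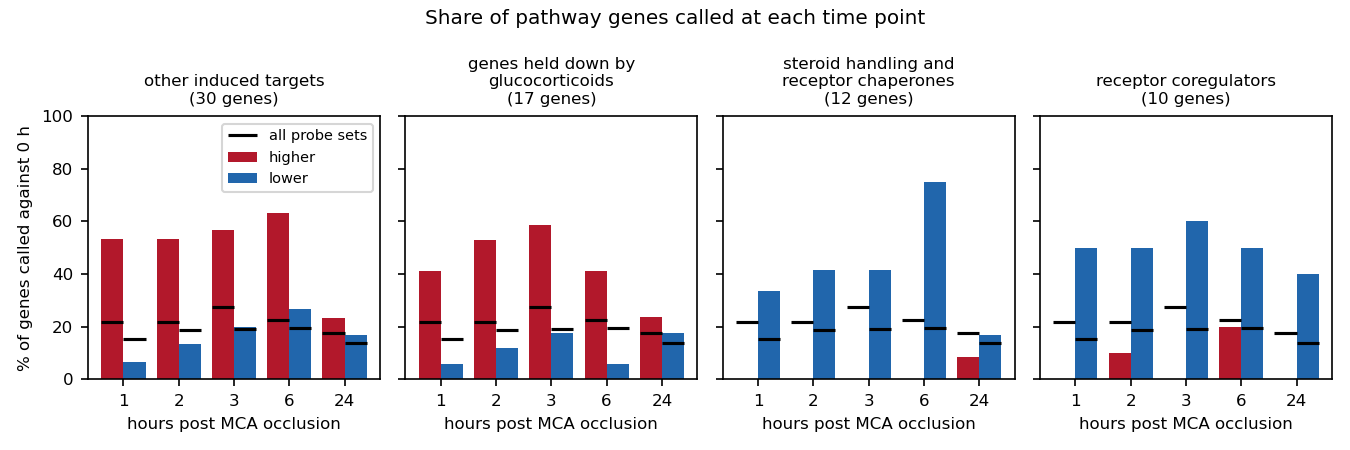
Share of the genes of each pathway list (y axis, %) called higher (red) or lower (blue) than at 0 h at each time point (x axis, hours, not to scale), with black lines for the share of all 27596 probe sets called in that direction. At 6 h, 63.3% of the other induced genes were higher and 75.0% of the steroid handling and chaperone genes were lower. The lists were chosen with earlier results of these data known.

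Blood cell markers, in lists also chosen with earlier results known, moved over the same hours. Of all probe sets, 22.5% were called higher and 19.3% lower at 6 h. At that time, 8 of 9 neutrophil markers were higher and Fcgr3a was lower. The mean log2 level of that list went from 9.85 at 0 h to between 10.23 and 10.89 later, with a median change of 1.29 at 6 h. All 8 T cell markers were lower at every later time point, where 13.9% to 19.3% of all probe sets were, with median changes of -0.44, -1.19 and -0.70 at 1, 6 and 24 h and a mean level between 8.84 and 9.56 against 10.03 at 0 h. Of 8 B cell markers 7 were lower at 6 h, and the median change was lowest at 3 h, at -2.07, with a mean level between 7.88 and 9.03 against 9.53 at 0 h. Of 6 NK cell markers 5 were lower at 6 h and Ncr1 was higher (mean level 8.70 to 9.23 against 9.49). Of 7 monocyte markers 3 were higher and 3 lower at 6 h (mean level 9.76 to 10.16 against 10.14). The platelet and erythroid medians stayed between -0.13 and 0.26, over 5 and 6 markers (mean levels 11.23 to 11.45 against 11.19, and 12.28 to 12.62 against 12.40). The lowest mean of any marker at any time point was 6.09, and how far the markers stood above background was not assessed. Nr3c1 and the T cell median were both lowest at 6 h. At 2, 3 and 6 h the neutrophil median stood at 1.31, 1.26 and 1.29, and the change of Dusp1 at 1.19, 1.16 and 1.16. At 1 h the change of Dusp1 was above the neutrophil median (1.07 against 0.81), and at 24 h it was below it (0.30 against 0.59). Fkbp5, Zbtb16 and Sgk1 fell between 2 and 3 h, when the T cell median went from -0.90 to -1.06. The part of cell composition in the changes of the 7 genes was not tested.

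**Figure D4:**
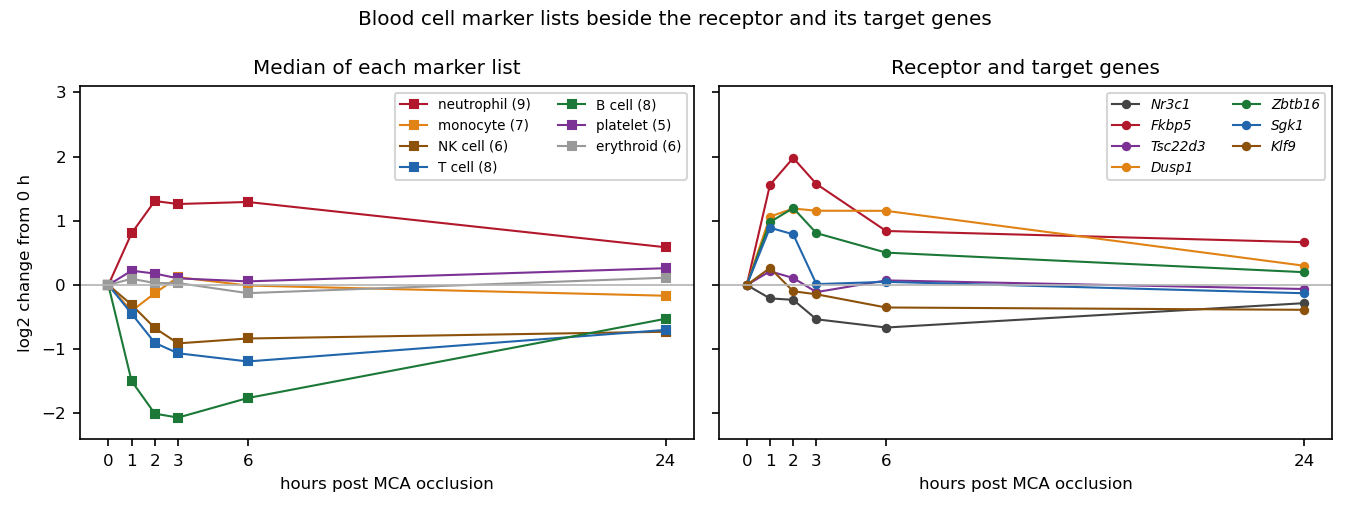
Median log2 change from 0 h (y axis) of 7 marker lists, with the number of genes in brackets (left), and the change of the receptor gene and its 6 target genes (right), against hours post MCA occlusion (x axis, linear). At 6 h the neutrophil median stood at 1.29 and the T cell median at -1.19, while Sgk1, at 0.05, and Tsc22d3, at 0.07, were near 0.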

How the data were processed

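Blood cell pellets were profiled on Affymetrix RaGene-1_0-st-v1 arrays. The authors made log2 signals by RMA (background correction, quantile normalization, probe summary) and deposited, per probe set, the log2 mean and SD over the arrays of each time point. These 12 columns were used. The table's 47 columns of single arrays carry numbers that the labels do not tie to a rat or time point and were left unused, as were the authors' own fold changes, p-values and F-tests. Signal over background was not assessed, and the 7 or 8 arrays limit the precision.

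A linear model of the 6 time points was fitted from the means, SDs and array numbers, with variances moderated by limma 3.58.1 in R 4.3.3 (41 residual degrees of freedom) and Benjamini-Hochberg adjustment over all 27596 probe sets. It is not the authors' own test and leaves out the rat, although the same rats were sampled throughout, but for rat 3 at 6 h. The fit was tested on simulated data. Of several probe sets of a gene the brightest was used. The members and lists were chosen with earlier results of these data known. The 11 lists, 4 of the pathway and 7 of cell markers, share no gene, and Cebpd, Tnfaip3 and Gp6 had no probe set by symbol. Named list genes are those past the F-test with the largest changes, up to 4 per list and direction. Per1 was named as the closest profile to Sgk1. Some genes that these rules name are not reported here. The alternatives were centring or quantile normalization of the means, no moderation, a robust prior following intensity, leaving out the dimmest 25% of probe sets or the 24 h samples, and the variance of the 2 groups only.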

Additional observations from a re-analysis of the deposited data

How the results depend on the processing

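No paired analysis was possible because the single-array columns carry numbers that the labels do not tie to a rat or time point, and single rats were not left out for the same reason. Each gene had 1 probe set, so that no other probe set could be tried. Over 7 alternative settings, 265 of the 280 values of single genes kept their side of the threshold and, where it could turn, their direction. The rises of Fkbp5, Dusp1 and Zbtb16 up to 6 h and of Sgk1 up to 2 h were among them. Only centring and quantile normalization altered the changes themselves, so that the other settings could not turn a direction. The F-tests among these values have no direction. The number of genes lower at 1 h went from 1 to 0 after quantile normalization of the means, without moderation, with a robust prior following intensity and without the 24 h samples, in each case through Nr3c1 (moderated adjusted p = 0.0499), which moved to an adjusted p between 0.0537 and 0.144. After quantile normalization the number lower was also 0 at 2 h and 1 at 24 h, again through Nr3c1 (adjusted p = 0.0583 and 0.0582). The number higher at 1 h went from 5 to 4, through Klf9, after centring and without moderation, and to 6, through Tsc22d3, after quantile normalization. The number higher at 24 h went from 2 to 1, through Dusp1, after centring and without moderation. Of the changes, 2 turned their sign, both near 0: Sgk1 at 3 h, from 0.014 to -0.024 after centring, and Tsc22d3 at 24 h, from -0.06 to 0.010 after quantile normalization. Among the lists, those held down by glucocorticoids had 4 rather than 7 genes higher at 1 h after centring, and at 6 h 2 lower after centring and 0 without the dimmest probe sets, against 1. At 3 h the number higher in this list was 8 after centring and 7 after quantile normalization, against 10. The further induced genes had 12 higher at 1 h after centring and 14 after quantile normalization, against 16. At 6 h these numbers were 17 and 18, against 19. The cause of these shifts was not tested.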
